A study of Mus musculus with 3 samples.

Results

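The fibroblast growth factor (FGF) genes described here are 33 genes of mouse FGF signalling: the secreted paracrine and endocrine ligands, the intracellular homologous factors, the 4 receptors, and a set of feedback inhibitors and transcription factors that the pathway is known to induce. They were found on a one-colour Agilent expression array as the non-control probes whose gene name equals a member's symbol. By this rule 32 of the 33 genes were on the array, with 59 probes at 104 spots, out of 27538 gene labels and 41174 probes in all. No probe carried the name Fgf4, the ligand best known as an autocrine signal of mouse embryonic stem cells, and its level was not analysed here.

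The study concerned the part p53 plays when mouse induced pluripotent cells are made, and it compared total RNA of 3 cultures, each labelled with Cy3 and hybridised to 1 array. The cultures were p53-null mouse embryonic fibroblasts (MEF), embryonic stem (ES) cells, and MEF whose title names no p53 change, called MEF below. All 3 carried a Nanog-GFP reporter, in which green fluorescent protein marks Nanog expression. The labels name no passage, number of embryos, ES cell line, feeder layer or medium. With 1 array a group there was no replicate check and no test, so each difference below lies between these arrays and is not shown for the genotype or the cell type.

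FGF ligands bind receptor tyrosine kinases of the Fgfr family together with heparan sulfate, or with a Klotho protein in the case of the endocrine ligands, and the receptors then drive the Ras and ERK cascade. ERK activity is known to induce the ETS-family factors Etv4 and Etv5 and also genes that damp the pathway, among them the Sprouty and Spred genes and the ERK phosphatase Dusp6. In mouse ES cells the pathway is known for moving cells out of the naive pluripotent state. In fibroblasts FGFs are mitogens, and mesenchymal cells make several ligands that act on neighbouring epithelia.

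Signals are given in scaled units, with the 75th percentile of each array set to 1000 units, so the ratio of a probe's signals on 2 arrays is its fold difference. A probe counted as detected where the scanner software marked at least 50% of its kept spots well above background. A gene was read at its brightest probe, meaning the one whose log2 signals averaged highest across the 3 arrays, though another probe could be brighter on a single array. No gene's level was set against another's, since probes differ in brightness. A difference was counted where it was at least 2-fold, measured or as a bound. The scanner's error model put the error of 1 bright signal at 10%, which is 0.204 on the log2 scale for a difference of 2 bright signals. That error covers the spot and the scan and leaves out the culture.

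The arrays had 26198 (p53-null MEF), 27954 (ES cells) and 26462 (MEF) of 43379 spots well above background and no saturated spot. Trp53, the gene that encodes p53, gave 54.0 units in p53-null MEF against 1574 units in MEF at its brighter probe, 29.1-fold lower. Its other probe gave 250.5 units in p53-null MEF against 690.5 units in MEF, 2.76-fold lower, and neither probe was placed relative to the deleted part. Among the cell type markers, 9 of 9 pluripotency genes were detected in ES cells and higher there than in MEF. All 12 fibroblast genes were detected in p53-null MEF, 11 in ES cells (Lum was dim) and 12 in MEF, and their summed signal was 471200 units in p53-null MEF, 8350 units in ES cells and 643600 units in MEF. Per the file headers, the arrays of ES cells and MEF shared a slide, whereas p53-null MEF had a different slide and a separate scan, so slide, scan and genotype cannot be told apart. The fibroblast cultures also differed in sex-linked genes: Xist, which is transcribed from the inactive X, gave 7152 units in p53-null MEF against a dim 3.35 units in MEF, a difference of at least 479-fold, while the Y-linked Eif2s3y gave a dim 3.91 units in p53-null MEF against 1492 units in MEF, lower by at least 96.9-fold.

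Of the 32 FGF genes on the array, 22 were detected in p53-null MEF, 23 in ES cells and 22 in MEF. Every receptor, feedback inhibitor and ETS target was detected on all 3 arrays. The ligands differed more: 9 of 17 secreted ligands were detected in p53-null MEF, 10 in ES cells and 9 in MEF. Fgf6, Fgf20, Fgf22 and Fgf23 among the ligands, and the intracellular factors Fgf12 and Fgf14, were dim on all 3 arrays, with brightest-probe signals between 2.77 and 16.6 units. Of the 26 genes detected somewhere, 14 were brightest in ES cells, 8 in MEF and 4 in p53-null MEF.

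**Figure D1:**
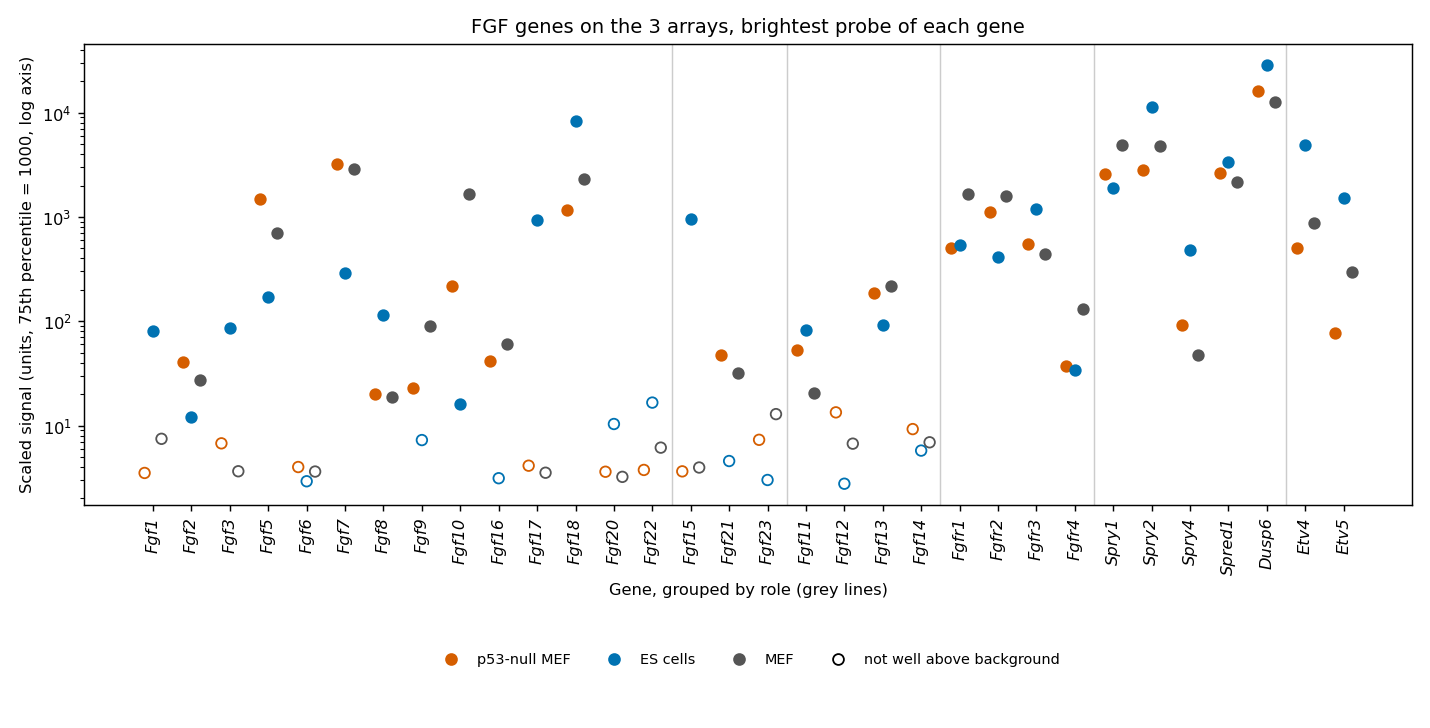
Scaled signal (log axis, 75th percentile of each array at 1000 units) of the brightest probe of the 32 FGF genes in p53-null MEF, ES cells and MEF, with 1 array each and open circles for signals not well above background. Fgf17 and Fgf15 are at 927.1 and 959.3 units in ES cells and dim in both fibroblast cultures, whereas Fgf10 is at 217 units in p53-null MEF, 16.0 units in ES cells and 1655 units in MEF.

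ES cells and MEF differed by at least 2-fold in nearly all of the FGF genes that could be compared, about as often upward as downward. Of 26 genes measured or bounded, 13 were higher in ES cells, 12 were lower, and Spred1 alone lay within 2-fold. Fgf15 and Fgf17 were the highest in ES cells relative to MEF, each by at least 62.1-fold, and Fgf10 was the lowest, at 104-fold lower. These sizes depend on the background correction. On the log2 scale they are bounds of 6.01 for Fgf15 and 5.96 for Fgf17, and -6.70 for Fgf10. With normexp background correction and 75th percentile scaling they were 3.61, 3.66 and -4.19. By role and brightest probe, 3 of 4 receptors were lower in ES cells, Fgfr4 among them, while 3 of 5 feedback inhibitors and 2 of 2 ETS targets were higher. Of all 18745 gene labels compared, 32.7% passed 2-fold upward in ES cells and 27.1% downward, and the median log2 difference was 0.20 over all labels and 0.90 over the FGF genes. The median describes little here, because the FGF genes lay on both sides of 0 with a gap between. The counts include Fgf11 and Fgfr4, whose probes disagree, and with normexp background correction 17 of the 25 genes kept their 2-fold difference, while Fgf1, Fgf2, Fgf9, Fgf16, Fgf21, Fgf11, Fgf13 and Fgfr3 did not.

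p53-null MEF and MEF were closer to each other. Of 22 FGF genes measured, 2 were higher in p53-null MEF (Fgf5 and Fgf11), 5 were lower (Fgf9, Fgf10, Fgfr1, Fgfr4 and Etv5) and 15 lay within 2-fold. The Fgf11 and Fgfr4 counts rest on 1 probe each, with another probe in the opposite direction, and both were lost with the mean of all probes and with the median probe. Of all 17398 gene labels compared, 18.6% passed 2-fold upward in p53-null MEF and 16.6% downward, so the 5 lower and 2 higher among 22 are not far from these shares. The median log2 difference was -0.36 over the FGF genes and 0.03 over all labels. These directions hold relative to each array's own signals. Scaled on the spike-in controls instead, the median of all labels moved to 2.01 and none of the 5 lower genes stayed 2-fold lower. The differences of Fgf9, Fgfr1, Fgfr4 and Etv5 then became small and positive, all but that of Fgfr1 within the scanner's error. With normexp background correction Fgf5, Fgf9 and Fgf11 were no longer past 2-fold. Both comparisons use the single MEF array, so an unusual MEF signal moves both.

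**Figure D2:**
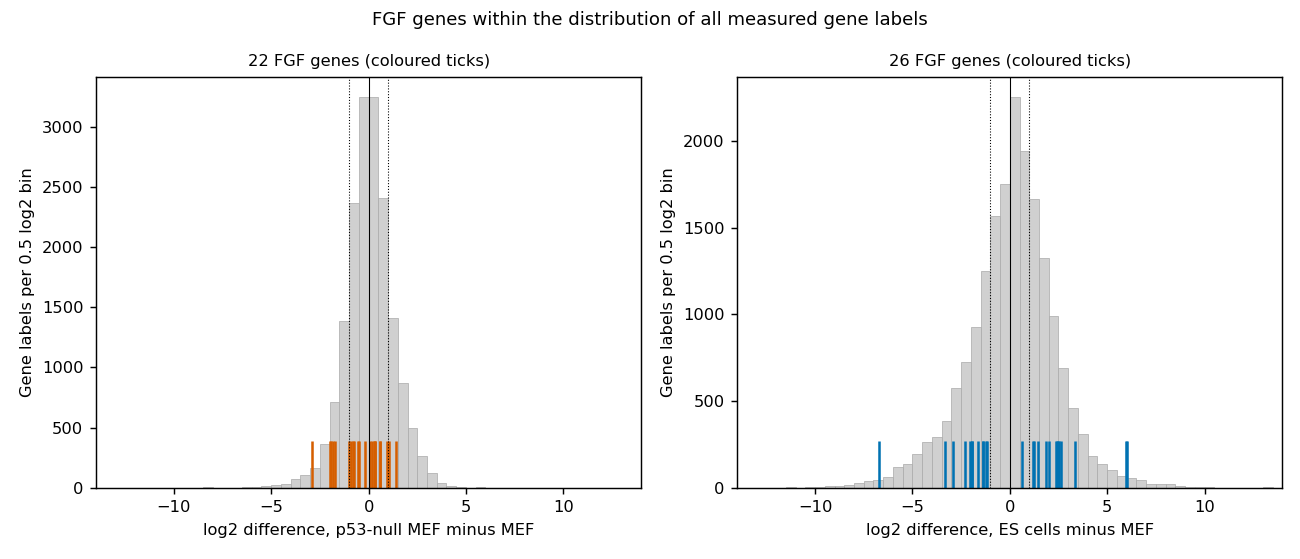
Number of gene labels per 0.5 bin of the log2 difference, for p53-null MEF minus MEF (left) and ES cells minus MEF (right), with ticks for the 22 and 26 FGF genes and dotted lines at 2-fold. The FGF genes of the left panel lie mostly between the dotted lines (5 lower and 2 higher, on 75th percentile scaling), while those of the right panel leave the middle nearly empty, with 1 gene within 2-fold.

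**Figure D3:**
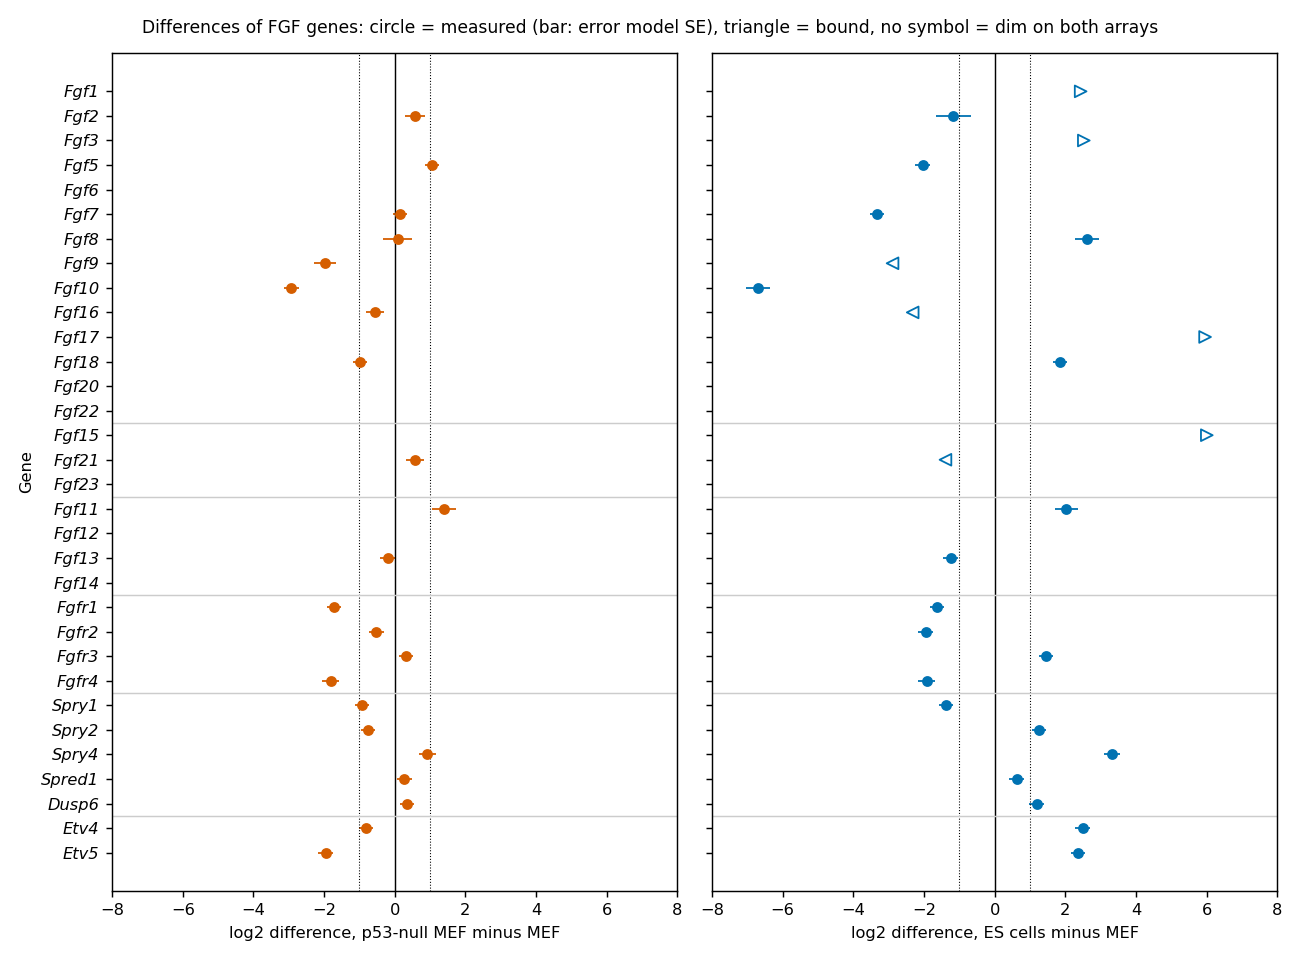
log2 difference of each FGF gene in p53-null MEF minus MEF (left) and ES cells minus MEF (right), with bars for the standard error of the scanner's error model, triangles for bounds and no symbol where both arrays were dim. Fgf10 is lower in both panels, at -2.93 and -6.70. Etv5 is lower on the left (-1.95, but no difference beyond the scanner's error on spike-in scaling) and higher on the right (2.36).

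Among the paracrine ligands, 5 were higher in ES cells than in MEF, and 3 of these (Fgf1, Fgf3 and Fgf17) were dim in both fibroblast cultures. Fgf17, a ligand of the Fgf8 subfamily, gave 927.1 units in ES cells, against dim signals of 4.12 units in p53-null MEF and 3.53 units in MEF, which is at least 62.1-fold higher than in MEF. Fgf8, a ligand needed for gastrulation in the mouse, had a probe at 10 spots that read 115.1 ± 3.47 units in ES cells, against 19.96 ± 2.78 units in p53-null MEF and 18.84 ± 2.77 units in MEF (SD over 8, 10 and 8 kept spots of 1 array each). The kept Fgf8 spots of ES cells lay between 109.0 and 118.8 units and did not overlap those of either fibroblast array, whose spots overlapped each other. These SDs are between spots of 1 hybridisation only. Of the kept spots, 7 of 10 in p53-null MEF and 5 of 8 in MEF were marked well above background. MEF spots left out as uneven or outlying read 51.3 and 46.6 units. With normexp background correction and 75th percentile scaling, the log2 difference of ES cells from MEF fell from 2.61 to 1.03. The second Fgf8 probe was dim on all 3 arrays.

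Fgf3, a ligand of the inner ear and tail bud in mouse embryos, gave 85.9 units in ES cells against a dim 3.64 units in MEF, at least 5.75-fold higher. Fgf1, a ligand able to bind all the receptors, gave 80.6 units in ES cells against a dim 7.46 units in MEF, at least 5.40-fold higher, and its second probe gave at least 6.13-fold. Both were dim in p53-null MEF too, at 6.75 units for Fgf3 and 3.51 units for Fgf1. Fgf18, a ligand known from skeletal and lung development, was bright in all cultures, with 8361 units in ES cells against 2313 units in MEF, 3.61-fold higher. In p53-null MEF it gave 1170 units, 1.98-fold lower than in MEF and just short of the 2-fold count.

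The ligands that were lower in ES cells include the mesenchymal ligands Fgf7 and Fgf10, which are known to act on epithelial Fgfr2. The Fgf10 probe, at 10 spots, read 217.4 ± 9.30 units in p53-null MEF, 15.97 ± 2.60 units in ES cells and 1655 ± 98.1 units in MEF (SD over 10, 8 and 10 kept spots of 1 array each). Its kept spots lay between 199.1 and 230.8 units in p53-null MEF and between 12.3 and 20.2 units in ES cells. In MEF they lay between 1465 and 1793 units, so the 3 arrays did not overlap. ES cell spots left out as uneven or outlying read 33.2 and 31.5 units, above the kept range of that array. In ES cells 4 of the 8 kept spots were marked well above background, so that level is at the edge of detection. Relative to MEF, the Fgf10 signal was 7.61-fold down in p53-null MEF, and 104-fold down in ES cells.

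Fgf7 did not share the low level in p53-null MEF: it gave 3220 units in p53-null MEF and 288.0 units in ES cells, against 2888 units in MEF. This is 1.11-fold higher in p53-null MEF, within the error model, and 10.03-fold lower in ES cells. Fgf5, a ligand of the primed epiblast and of the hair follicle in the mouse, gave 1473 units in p53-null MEF and 172.1 units in ES cells, against 707.3 units in MEF. It was 2.08-fold higher in p53-null MEF, barely past the 2-fold count, and 4.11-fold lower in ES cells. Fgf5 is often read as a mark of pluripotent cells leaving the naive state, and on these arrays its brightest samples were the fibroblasts.

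Fgf9, a ligand of mesenchymal growth and testis development in the mouse, gave 23.0 units in p53-null MEF and a dim 7.25 units in ES cells, against 89.8 units in MEF. The p53-null MEF signal was 3.91-fold lower, and the ES cell signal at least 7.42-fold lower. Fgf16, a related ligand, gave 41.2 units in p53-null MEF and a dim 3.12 units in ES cells, against 60.5 units in MEF, a log2 difference of -0.55 in p53-null MEF and of -2.32 or less in ES cells. Neither gene had a second probe. Fgf2, the FGF used to culture many stem cells, had a probe at 10 spots that read 40.5 ± 4.81 units in p53-null MEF, 12.1 ± 5.13 units in ES cells and 27.3 ± 1.31 units in MEF (SD over 10, 10 and 9 kept spots of 1 array each). The kept spots of p53-null MEF (33.02 to 46.85 units) lay above the kept spots of MEF (24.9 to 28.7 units), a 1.49-fold difference. A MEF spot left out as uneven or outlying read 42.45 units, within the p53-null MEF range. With normexp background correction and 75th percentile scaling, the log2 difference fell to 0.055. The spots of ES cells (4.46 to 23.7 units) lay below those of MEF, but only 5 of 10 were marked well above background. Its second probe, a single spot, gave 54.6 units in p53-null MEF and a dim 2.78 units in ES cells, against 24.7 units in MEF, which is 2.21-fold higher in p53-null MEF, and lower by at least 2.04-fold in ES cells.

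Fgf22, a ligand known from synapse formation in the mouse brain, had 1 reading that was set aside. One of its 2 probes gave 12010 units on the ES cell array, on a spot with a median pixel of 4792 and a pixel SD of 10230 signal units, and the scanner software had marked the spot as uneven or as an outlier, so it was left out. The other probe was dim on all 3 arrays, at 3.75 units in p53-null MEF, 16.6 units in ES cells and 6.14 units in MEF. One Fgf8 spot on the same array gave 24100 units where its 8 kept copies read 118.8 units or less, and it was left out in the same way. Over the 3 arrays, 11 spot readings of FGF probes were left out in all.

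The endocrine ligands are hormones that need Klotho co-receptors. Fgf15, an intestinal bile acid signal in the adult mouse that is also made in the embryo, gave 959.3 units in ES cells, against dim signals of 3.64 units in p53-null MEF and 3.96 units in MEF, at least 64.3-fold higher than in MEF. Fgf21, a hormone of fasting and of cell stress, went the other way, with 47.2 units in p53-null MEF and a dim 4.57 units in ES cells, against 31.8 units in MEF. It was at least 2.63-fold lower in ES cells, though its second and dimmer probe bounded this at only 1.74-fold, and 1.49-fold higher in p53-null MEF, where the second probe gave 1.07-fold lower. Fgf23, a phosphate hormone of bone, was dim throughout.

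Fgf3 and Fgf15 are near neighbours: their probes lie 57.8 kb apart on chromosome 7 of mm8 (chr7:144650152-144652011 and chr7:144709856-144709915, both on the plus strand). In the RefSeq annotation the only protein-coding gene between them is Fgf4. Both neighbours of Fgf4 were thus detected in ES cells and dim in both fibroblast cultures. Another pair, Fgf6 and Fgf23, have probes 45.4 kb apart on chromosome 6 and no protein-coding gene between them, and both were dim on all 3 arrays. Fgf2 and Spry1 lie 240.0 kb apart on chromosome 3.

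Of the intracellular homologous factors, which do not signal through the receptors and are known to bind sodium channels, Fgf13 was detected in all cultures. It gave 187.9 units in p53-null MEF and 91.5 units in ES cells, against 216.4 units in MEF, lower by 1.15-fold in p53-null MEF, and by 2.37-fold in ES cells. Its other 2 probes were also lower in ES cells, by 3.06-fold and by at least 1.93-fold. Fgf11 cannot be given a direction, because its 2 probes disagreed. The first gave 53.4 units in p53-null MEF and 83.2 units in ES cells, against 20.4 units in MEF, 2.62-fold and 4.08-fold higher. The second gave a dim 12.2 units in p53-null MEF and 16.6 units in ES cells, against 27.0 units in MEF, at least 1.76-fold and 1.62-fold lower. The first 30 of the 60 bases of each Fgf11 probe are shown, since they are what the 2 readings rest on, with the first probe at chr11:69612453-69612512 and the second at chr11:69615634-69615903 (mm8, minus strand), the second design spanning 270 bases of the genome.
first Fgf11 probe: gtaaaataggaggtagattccgagtctagc
second Fgf11 probe: gatgggagtatccagggcaccccagaggac

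The 4 receptors were detected in all 3 cultures. Fgfr1 and Fgfr2 were lower in ES cells than in MEF at every probe, Fgfr3 was higher at its 2 detected probes, and the probes of Fgfr4 disagreed. Fgfr1, the main receptor of both mesenchymal and mouse ES cells, gave 507.6 units in p53-null MEF and 540.5 units in ES cells, against 1675 units in MEF. p53-null MEF and ES cells thus stood close to each other, with log2 differences from MEF of -1.72 and -1.63. The probe present at 10 spots was lower by 3.91-fold in p53-null MEF, and by 3.31-fold in ES cells, and it shares 39 bases by position with the brightest probe, so these readings are not independent. Another probe, 3817 bases from the 10-spot probe, gave 3.95-fold and 3.28-fold lower. The last probe, at chr8:26997829-26997888 (mm8) and 41226 bases from the 10-spot probe, gave 246.2 units in p53-null MEF and 146.2 units in ES cells, against 304.2 units in MEF. There the difference was 1.24-fold in p53-null MEF, and 2.08-fold in ES cells, both lower, so the Fgfr1 difference in p53-null MEF passed 2-fold at 3 of 4 probes.

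Fgfr2, the receptor of Fgf7 and Fgf10 in its epithelial isoform, gave 1112 units in p53-null MEF and 410.2 units in ES cells, against 1590 units in MEF. It was 3.88-fold lower in ES cells, and its other 2 probes were lower by 5.24-fold and by at least 2.75-fold. In p53-null MEF the brightest probe was 1.43-fold lower, the 10-spot probe 2.09-fold lower and the last probe, 79194 bases from the brightest, 1.19-fold higher. Fgfr2 is therefore lower in ES cells at every probe and without a settled direction in p53-null MEF.

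Fgfr3, a receptor known as a brake on bone growth, was higher in ES cells, with 546.7 units in p53-null MEF, 1198 units in ES cells and 439.6 units in MEF. It was 2.72-fold higher in ES cells and 1.24-fold higher in p53-null MEF. A second probe that shares 37 bases with the brightest by position gave 2.13-fold higher in ES cells and a p53-null MEF signal 1.02-fold below MEF; the last probe was dim on all 3 arrays.

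Fgfr4, a receptor best known in liver and muscle, gave opposite answers at different probes, so the call of its brightest probe should not be read as the gene's. That probe gave 37.1 units in p53-null MEF and 34.4 units in ES cells, against 130.5 units in MEF, 3.52-fold and 3.79-fold lower. The probe farthest along the gene gave 40.2 units in p53-null MEF and 160.3 units in ES cells, against a dim 17.1 units in MEF, higher by at least 2.34-fold and by at least 9.35-fold. The probe between them gave 25.1 units in p53-null MEF and 21.2 units in ES cells, against 31.7 units in MEF, 1.26-fold and 1.49-fold lower. All 3 lie within 1 kb on the plus strand of chromosome 13 (mm8), at chr13:55177486-55177545, chr13:55177621-55177680 and chr13:55178238-55178297. The array's design file gives the first 2 the same source transcript and the last another, and whether each probe lies in coding sequence was not determined here. The first 30 of their 60 bases are shown because the sign of the gene's difference turns on them.
brightest Fgfr4 probe: cagctggtggaagctctggacaaggtcctg
middle Fgfr4 probe: gaagctgaccagctctgttccttgcagtac
farthest Fgfr4 probe: ccctccattgcttgttccagcatcttggtg

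**Figure D4:**
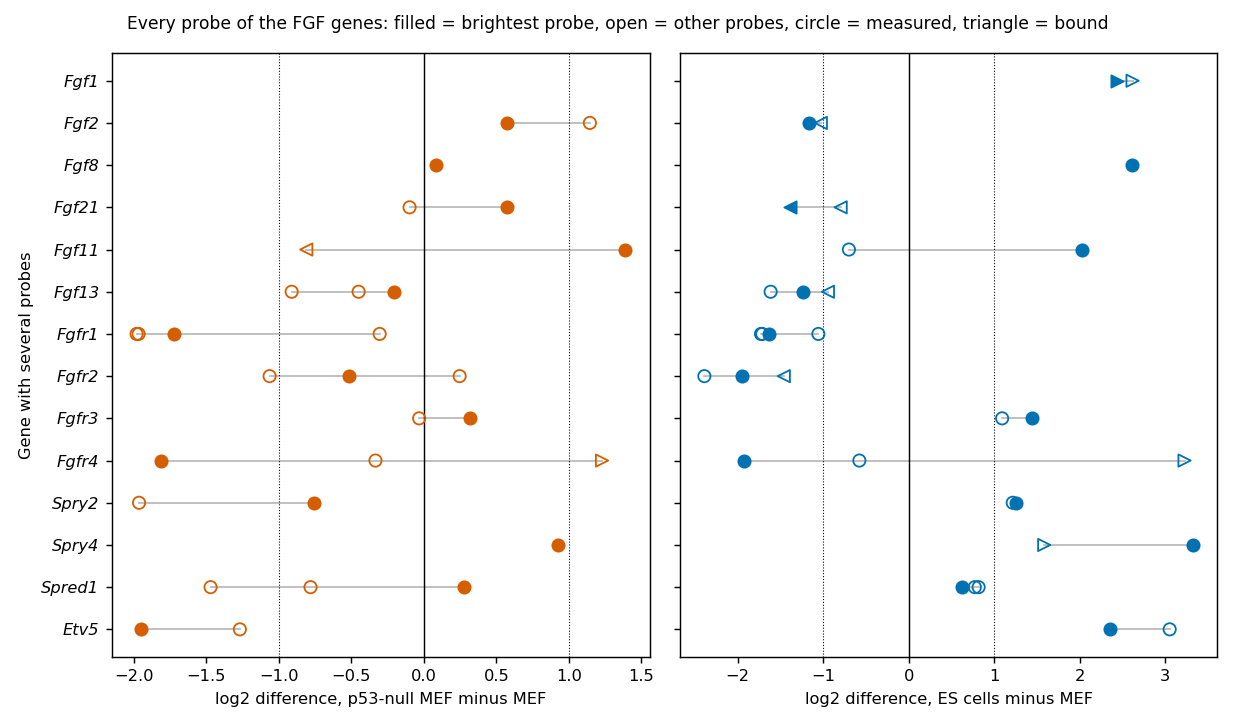
log2 difference of every probe of the FGF genes with several probes, for p53-null MEF minus MEF (left) and ES cells minus MEF (right), with filled symbols for the brightest probe, circles for measured values, triangles for bounds and dotted lines at 2-fold. The probes of Fgf11 and Fgfr4 fall on both sides of 0 in both panels, those of Fgf2, Spry2 and Etv5 keep one side (all on 75th percentile scaling), and those of Spred1 split on the left only.

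The feedback inhibitors were mostly higher in ES cells. Dusp6, the phosphatase that switches off ERK, gave 16020 units in p53-null MEF and 28650 units in ES cells, against 12580 units in MEF, 1.27-fold and 2.28-fold higher. Spry2, a Sprouty inhibitor of receptor tyrosine kinase signalling, gave 2810 units in p53-null MEF and 11350 units in ES cells, against 4761 units in MEF, 1.69-fold lower and 2.38-fold higher. Its second probe agreed on ES cells, at 2.32-fold higher, but its p53-null MEF signal was 3.90-fold below MEF.

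Spry4, a Sprouty gene known as an early ERK response, showed the widest difference of the group, with 91.1 units in p53-null MEF and 479.6 units in ES cells, against 47.9 units in MEF. The log2 difference was 3.32 in ES cells and 0.93 in p53-null MEF, and its dimmer second probe gave 1.58 or more in ES cells. Spry1 ran the opposite way to the other Sprouty genes in ES cells: it gave 2596 units in p53-null MEF and 1890 units in ES cells, against 4932 units in MEF, 1.90-fold and 2.61-fold lower. Spred1, a membrane-bound inhibitor of Ras activation, gave 2623 units in p53-null MEF and 3329 units in ES cells, against 2167 units in MEF, 1.21-fold and 1.54-fold higher. All 3 Spred1 probes were between 1.54-fold and 1.76-fold higher in ES cells, while in p53-null MEF the other 2 were 1.72-fold and 2.77-fold lower.

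On 75th percentile scaling Etv4 and Etv5, the ETS factors induced by FGF signalling, had their highest signals in ES cells and their lowest in p53-null MEF. The order of the fibroblast arrays depends on that scaling. On spike-in scaling, none of the FGF genes was 2-fold lower in p53-null MEF. Etv5 gave 76.9 units in p53-null MEF and 1529 units in ES cells, against 298.0 units in MEF, 3.88-fold lower and 5.13-fold higher. Its second probe gave 57.2 units in p53-null MEF and 1142 units in ES cells, against 137.8 units in MEF, 2.41-fold lower and 8.29-fold higher. Etv4, with 1 probe, gave 501.8 units in p53-null MEF and 4929 units in ES cells, against 876.9 units in MEF, 1.75-fold lower and 5.62-fold higher. Of these ETS targets and feedback inhibitors, Etv5 alone passed 2-fold in p53-null MEF at its brightest probe. At that probe, and on 75th percentile scaling, Etv4, Spry1 and Spry2 lay below MEF and Dusp6, Spry4 and Spred1 above it, all within 2-fold.

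ETS factors bind DNA at a GGAA core, so the 250 bases before the annotated starts of the feedback genes were read for it. RefSeq promoters (GRCm38.p6) were used for 24 of the 33 genes, with 32 starts, and GGAA was searched on both strands. Dusp6 held 6 matches and Spry2 held 3, both higher in ES cells, while Spry1, lower in ES cells, held 1 and Spred1, within 2-fold, held 4. The 2 starts of Etv5 held 0 and 4, and the promoters of Spry4 and Etv4 were not used here. Of all 32851 promoters of this length 93.4% held at least 1 match, with a median of 3, and 18% held at least 5, so these counts are ordinary for the most part. The longer form CCGGAAG, which contains the core, was found in the promoters of 0 of the 24 genes, against 6.91% of all promoters, and the octamer ATGCAAAT in none of the 32, against 1.60%. A match describes letters only, and no match says nothing of the factors. The Dusp6 promoter lies at chr10:99262981-99263230 (plus strand), that of Spry2 at chr14:105896820-105897069 (minus strand) and that of Spry1 at chr3:37639697-37639946 (plus strand). They are printed as the pair that was higher and the one that was lower in ES cells, with GGAA, or TTCC where the match is on the other strand, in capitals.
Dusp6 promoter: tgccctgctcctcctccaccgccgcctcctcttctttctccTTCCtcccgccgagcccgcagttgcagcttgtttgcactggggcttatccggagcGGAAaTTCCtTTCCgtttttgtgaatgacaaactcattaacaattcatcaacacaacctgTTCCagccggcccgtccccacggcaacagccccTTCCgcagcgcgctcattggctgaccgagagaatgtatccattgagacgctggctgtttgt
Spry2 promoter: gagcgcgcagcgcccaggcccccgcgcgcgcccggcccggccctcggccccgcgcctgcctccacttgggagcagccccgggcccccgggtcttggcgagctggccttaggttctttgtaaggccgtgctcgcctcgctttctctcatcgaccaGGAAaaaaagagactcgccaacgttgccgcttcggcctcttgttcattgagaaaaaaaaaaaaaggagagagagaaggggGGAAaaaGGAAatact
Spry1 promoter: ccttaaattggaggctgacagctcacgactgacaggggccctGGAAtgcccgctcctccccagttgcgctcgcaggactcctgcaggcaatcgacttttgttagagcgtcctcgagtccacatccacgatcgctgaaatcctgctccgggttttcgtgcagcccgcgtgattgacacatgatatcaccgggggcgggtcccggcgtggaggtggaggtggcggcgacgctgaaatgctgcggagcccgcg

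Around the FGF genes, 65 other genes of the pathway were listed, of which 64 were on the array and 61 could be compared. In ES cells 12 passed 2-fold upward and 28 downward relative to MEF, with a median log2 difference of -0.86, against 32.7% higher, 27.1% lower and a median of 0.20 over all labels. By list, of 15 co-receptors, decoy receptor and binding proteins 12 were lower and 1 was higher, and of 9 genes of heparan sulfate synthesis and editing 6 were lower and none was higher. The heparan sulfate core proteins Sdc3, Gpc6 and Sdc2 had the largest differences downward at their brightest probes. Sdc3 gave 69.2 units in ES cells against 4578 units in MEF, 66.2-fold lower, Gpc6 17.8 units in ES cells against 1066 units in MEF, 59.8-fold lower, and Sdc2 451.3 units in ES cells against 21850 units in MEF, 48.4-fold lower. The 3 Sdc3 probes ran from -6.05 to -1.66 on the log2 scale, while both probes of Gpc6 and of Sdc2 were at -5.60 or below. The largest differences upward were those of Fgfbp1, a carrier that frees FGFs from the matrix, at least 82.2-fold, of Dusp9, an ERK phosphatase, at 14.1-fold, and of Gab1, an adaptor, at 14.04-fold. The 2 Dusp9 probes gave log2 differences of 3.82 and 2.49. Fgfbp1 gave 1657 units in ES cells against a dim 20.2 units in MEF.

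In p53-null MEF 7 of the 61 pathway genes passed 2-fold upward and 6 downward relative to MEF, with 48 within 2-fold and a median of -0.12. Both counts are smaller shares than the 18.6% higher and 16.6% lower over all labels. On spike-in scaling they became 54 higher and 1 lower, beside 13707 higher and 273 lower of all 17398 labels. Sulf2, an enzyme that trims sulfate from heparan sulfate, was the lowest, with 2358 units in p53-null MEF against 25520 units in MEF, 10.8-fold lower, with log2 differences of -3.44 at this probe and -3.09 at the other. Gpc6 was 3.47-fold and Sdc3 3.01-fold lower. Flrt3, a membrane protein that binds FGF receptors, was the highest, with 4893 units in p53-null MEF against 911.1 units in MEF, 5.37-fold higher. Dusp9 gave 1137 units in p53-null MEF against 223.5 units in MEF, 5.09-fold higher, with log2 differences of 2.35 at this probe and 0.46 at the other. Kl, the Klotho co-receptor of endocrine FGFs, gave 65.3 units in p53-null MEF against a dim signal in MEF, higher by at least 4.38-fold.

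Marker lists of other cell types were read at their brightest probes. Against MEF, p53-null MEF had 1 endothelial gene at least 2-fold higher and 1 lower, of 3 measured. Skeletal muscle had 2 higher and 1 lower of 4, and epithelium 2 higher and 2 lower of 5. Primitive endoderm had 2 higher and 0 lower of 4, and trophectoderm 1 higher of 1. Over all labels 18.6% were higher and 16.6% lower. In p53-null MEF 5 of 5 measured genes of glia and neural crest lay 2-fold or more below MEF at their brightest probes, against 16.6% of all labels. Sox10 and Foxd3 were bounds, being dim in p53-null MEF. The Erbb3 probes with a value ran from -1.65 to 0.36 on the log2 scale. At their brightest probes, fibroblast genes were at least 2-fold down for 5 of 12 and at least 2-fold higher for none. Those down were Dcn, Pdgfra, Lum, Col6a3 and Col3a1, by 2.07-fold to 5.76-fold. Other probes went both ways on the log2 scale. Col1a2 reached 2.18 and Prrx1 2.57, while another Prrx1 probe was at -1.63 and a Col1a1 probe at -1.57. Macrophage genes were lower for 3 of 6 measured. Their summed signal was 552.6 units in p53-null MEF against 3069 units in MEF. In MEF it was mostly that of Lyz2, at 2390 units. In p53-null MEF Lyz2 gave 121.6 units and Cd14 gave more, at 302.6 units. The second Lyz2 probe differed between these arrays by only -0.51 on the log2 scale. Cd14 and Cd68 lay within 2-fold, and Csf1r, Adgre1 and Trem2 were dim in p53-null MEF, with Fcgr1 dim in both. Their part in the p53-null MEF values of Fgf9, Fgf10, Fgfr1 and Etv5 was not tested. In bulk RNA, fewer cells of a type and less RNA per cell cannot be told apart. In ES cells the summed fibroblast signal was 8350 units against 643600 units in MEF, and a part of fibroblast RNA in the low ES cell signals of Fgf5, Fgf7 and Fgf10 was not tested. Genes of the formative and primed epiblast were higher in p53-null MEF for 3 of 3 measured, and in ES cells for 4 of 5. Beside these small counts, 18.6% (p53-null MEF) and 32.7% (ES cells) of all labels passed 2-fold upward. The p53-null MEF differences were 4.40-fold for Pou3f1, 3.13-fold for Dnmt3b and 2.42-fold for Lef1. Otx2 and T, also on this list, were dim in both fibroblast cultures. The summed signal of the epiblast genes was 758.6 units in p53-null MEF and 55600 units in ES cells, against 227.2 units in MEF. Of 5 pluripotency genes measured in p53-null MEF, 3 were at least 2-fold lower than in MEF and 0 at least 2-fold higher. Over all labels the shares were 16.6% lower and 18.6% higher. Among the 3, Tdgf1 and Utf1 were bounds, dim in p53-null MEF and at only 50.5 and 33.8 units in MEF. The lowest MEF signal well above background was 14.9 units. Pou5f1, Nanog, Zfp42 and Esrrb were dim in both fibroblast cultures. Any part of FGF signalling in these marker differences was not tested.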

How the data were processed

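Total RNA of 3 cultures was hybridised to one-colour Agilent arrays. The deposited scanner files hold intensity values that, per the file headers, came from the Feature Extraction software (9.5.3.1), and the authors' value table holds the same intensity values, within 0.5% of the processed signal. From the processed signal, log2 values were taken and each array's 75th percentile over the 43379 non-control spots was subtracted. Spots marked uneven or outlying were left out, and spots of 1 probe were averaged. A probe dim on 1 array gave a bound against the higher of that array's lowest signal well above background (15.4 units in p53-null MEF, 12.1 units in ES cells, 14.9 units in MEF) and its own signal. All FGF genes and probes were reported, and of the other pathway genes the 3 largest differences each way were named. The members and lists were chosen with earlier results of these data known. Gene names were updated through RefSeq. With 1 array a group, the number of arrays limits the precision, and no model was fitted across genes. Alternatives were background correction by normexp (limma 3.58.1, R 4.3.3), other scalings, probe rules and filters. The summaries were tested on simulated data. Python 3.11.15 was used otherwise.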

Additional observations from a re-analysis of the deposited data

How the results depend on the processing

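No paired analysis was possible because each group had 1 array, and no replicate could be left out. With normexp background correction, the FGF genes higher in p53-null MEF numbered 0 (75th percentile or quantile scaling), those lower numbered 3 (quantile), the other pathway genes higher numbered 4 (75th percentile), the FGF genes lower in ES cells numbered 7 with either scaling, and their median log2 difference in ES cells was 0.68 or 0.66. Over all labels, normexp gave 2081 of 17393 higher in p53-null MEF with 75th percentile scaling. With quantile scaling it gave 2126 higher and 1785 lower of 17396. In ES cells 3934 of 18746 labels (75th percentile) and 4027 of 18744 labels (quantile) were lower. Of the 7 FGF genes counted in p53-null MEF, 4 and 3 were kept under normexp, with Fgf5, Fgf9 and Fgf11 lost each time. Of the 25 in ES cells 17 were kept. Median scaling gave an ES cell median of 0.68 and lost Dusp6. Without scaling, the p53-null MEF median was -0.032 and 14 other pathway genes were higher, beside 4700 of 17398 labels. The median of all labels moved to 0.36. Scaled on spike-ins, 16 FGF genes were higher and 0 lower in p53-null MEF (median 1.62), and 54 other pathway genes were higher and 1 lower. Of all 17398 labels compared, 13707 were then higher and 273 lower in p53-null MEF. The FGF median in ES cells was 1.14, while the median of all labels moved to 2.01 in p53-null MEF and 0.44 in ES cells. On spike-in scaling Fgf9 stood at 0.013, Fgfr1 at 0.26, Fgfr4 at 0.16 and Etv5 at 0.025 in p53-null MEF, all but Fgfr1 within the scanner's error. Of all labels counted in p53-null MEF, 52.8% were higher, against 71.1% without scaling and 98.0% on spike-ins. With the mean of all probes, 1 FGF gene was higher in p53-null MEF, the ES cell median was 0.65 and Fgfr4 in ES cells turned to 0.24; with the median probe, 1 was higher. Without a filter on dim probes the medians were -0.020 in p53-null MEF and 0.18 in ES cells, with detection required on both arrays the ES cell median was 0.62, and with uneven spots kept it was 1.19. The authors' value table moved none of the 48 values compared beyond the scanner's error. The causes of these shifts were not tested beyond what each setting changes. Signal near background limits the ES cell values of Fgf2 and Fgf10 and both Fgf11 probes.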

Other observations

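One further probe, named B230343J05Rik in the scanner files and matched to Fgf12 in RefSeq by accession, lay outside the rule by which FGF genes were found. It was dim on all 3 arrays, with 3.36 units in p53-null MEF, 2.70 units in ES cells and 3.08 units in MEF, as were both probes named Fgf12.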
